A study of Mus musculus with 3 samples.

Results

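*Cxcl1*, *Cxcl10*, *Cxcl12*, *Cxcl13*, *Cxcl14*, *Ccl2*, *Ccl7*, *Ccl11* and *Ccl19*, which encode chemokines, and *Il6*, which encodes a cytokine, were followed across the stromal subsets and vessels of mouse inguinal fat. These 10 genes were picked by symbol from the 32285 genes counted; the rule uses symbols and no measured value, although the symbols were chosen with earlier results of these data known. They filled 11 entries of the count tables, because *Ccl19* was listed a second time on the unplaced scaffold JH584294.1, where no UMI (unique molecular identifier, 1 counted RNA molecule) was found. All 10 had UMIs in each of the 3 libraries, from 601 for *Ccl19* in the *Pd*-KO library to 65075 for *Cxcl1* in the wild-type library.

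Stromal vascular fraction (SVF) cells of the inguinal fat pad were digested with collagenase II, depleted of dead and CD45-positive cells by sorting, and sequenced by 10x Genomics. The wild-type library pooled 12 mice (5 female and 7 male). The *Mgp*-KO library pooled 13 mice (6 female and 7 male) that lacked *Mgp*, the gene of matrix Gla protein, in all cells through the Mgptm1Kry allele. The *Pd*-KO library pooled 11 mice (5 female and 6 male) with floxed *Mgp* (flox/flox) and a *Pdgfra*-cre transgene, which deletes in cells that express *Pdgfra* or descended from such cells. All mice were 4 weeks old. Mice with floxed *Mgp* and no Cre were not sequenced in these libraries, so both knockouts are set against the same wild-type library. With 1 library per genotype no test was possible. Every interval is a 95% interval for counting error only, and genotype cannot be told apart from library.

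Barcodes with at least 2000 UMIs and at most 10% mitochondrial UMIs gave 10511 cells in the wild-type library, 12575 in the *Mgp*-KO library and 8819 in the *Pd*-KO library, with medians of 12802, 6445 and 8269 UMIs. Of the barcodes, 35 to 40 were shared by each pair of libraries, at most 0.420% of the cells of a library. Female cells, called from *Xist* and Y-linked UMIs, made up 35.1%, 60.6% and 32.5% of the cells. *Mgp* itself was at 485, 1.88 and 2.02 CPM (UMIs per 1000000 UMIs) in the stroma, and at 495, 0 and 228 CPM in the vessels. By their headers the wild-type counts came from Cell Ranger 4 and those of both knockouts from 7.1.0, a version that by default also counts reads in introns.

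Chemokines are small secreted proteins that guide leukocytes along gradients. Inducible chemokines such as CXCL1, CCL2, CCL7 and CXCL10 are switched on within minutes to hours by NF-κB or interferon signaling, as is IL6, whereas homeostatic chemokines such as CXCL12, CXCL13 and CCL19 position cells in resting tissue. In adipose tissue, stromal progenitors and not only macrophages are a known source of CCL2, CXCL1 and IL6.

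Cells were clustered without these genes, without any other chemokine and without *Mgp*, so that the levels compared here did not set the classes. The stroma (7852 cells in wild-type, 11231 in *Mgp*-KO and 7157 in *Pd*-KO mice) held 9 classes. They were interstitial progenitor-like (*Dpp4*, *Pi16*), *Ccn5* fibroblast-like, preadipocyte-like (*Icam1*, *Bmper*), Areg-like (*F3*, *Gdf10*), *Slit2 Frem1* stromal-like, *Csf2rb* stromal-like, early adipocyte-like and cycling cells, together with a cluster, S7, led by *Cited1*, *Fgf10* and *Col18a1*. Cluster S7 carried 2 markers of its own class and 3 of preadipocytes among its leading genes and was therefore kept by its number. Names were kept at a tie. The leading genes of *Ccn5* fibroblast-like cells held 3 markers of their own class and 3 of interstitial progenitors, with *Pi16* and *Dpp4* among them. Those of *Csf2rb* stromal-like cells held 1 of their own class and 1 of high endothelial venules. The vessels (1698, 417 and 1179 cells) held capillary, arterial and venous endothelial-like, smooth muscle-like and pericyte-like cells, besides a few high endothelial venule-like and lymphatic endothelial-like cells.

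In wild-type cells, 7 of the 10 had their highest level in a stromal class. The exceptions were *Cxcl12* in capillary endothelial-like cells, *Cxcl14* in myoepithelial-like cells and *Il6* in pericyte-like cells. Of 9089 genes, 29.8% were highest in a stromal class over the same 20 classes, 9 of them stromal. The 10 genes were chosen as stromal chemokines and *Il6*, with earlier results of these data known. Nothing is therefore concluded from that comparison. Stromal cells contributed from 66.3% (*Cxcl12*) to 95.8% (*Ccl19*) of the wild-type UMIs of a gene, and 80.9% of the UMIs of all genes. Within the stroma, 8 of the 10 genes differed by at least 4-fold between their highest and lowest wild-type class, whereas 20.6% of all 8194 genes compared did, with a median fold of 2.19. The exceptions were *Ccl11* (3.72-fold) and *Il6* (2.44-fold). The heat map of levels by class shows this division between genes present in most stromal classes and genes held by 1 class.

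**Figure D1:**
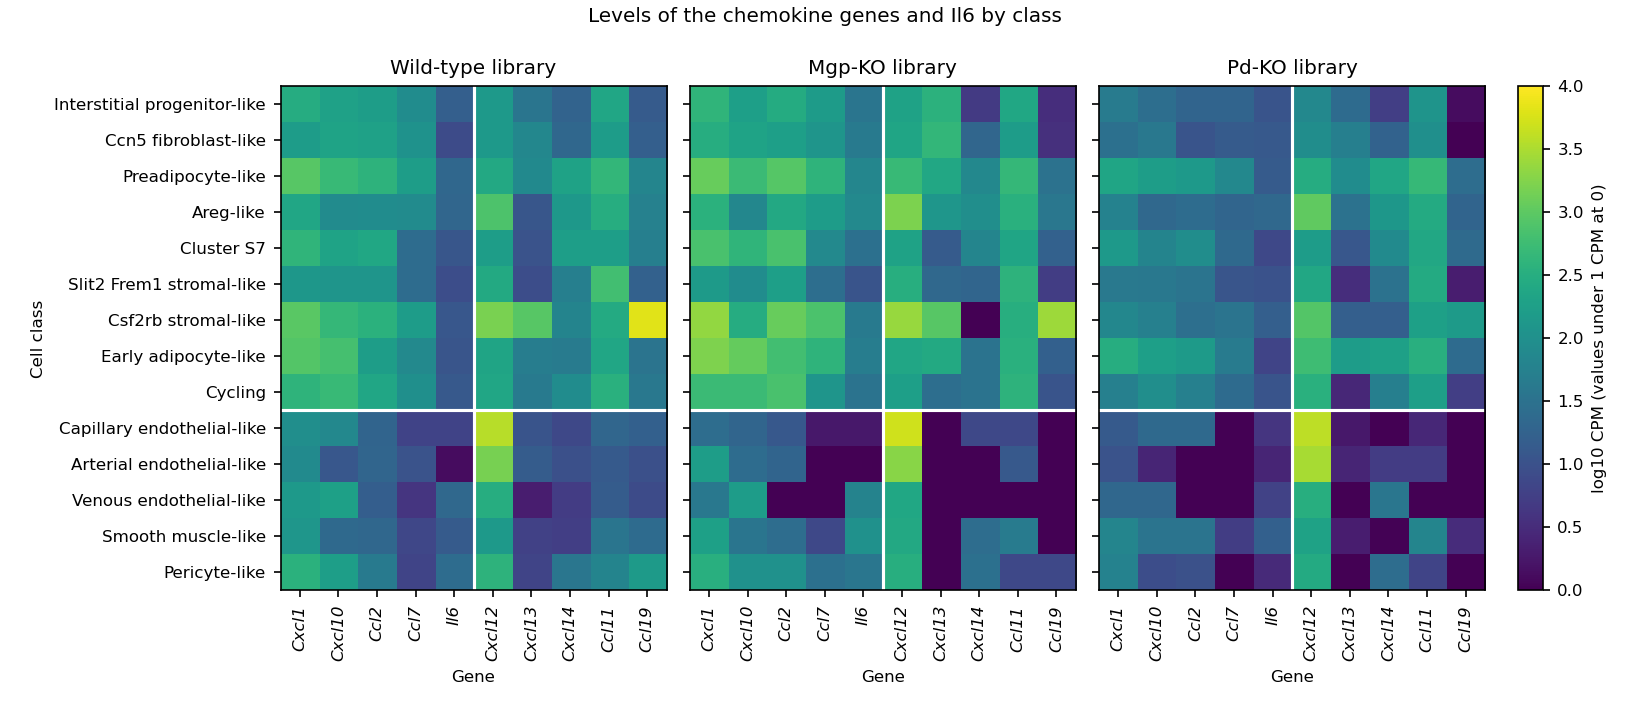
Level of each gene (columns) in 9 stromal classes (above the white line) and 5 vessel classes (below it) in the 3 libraries, as log10 CPM, with the inducible genes left of the vertical line. *Cxcl1*, *Cxcl10*, *Ccl2* and *Ccl7* are dimmer in the *Pd*-KO panel in nearly every stromal class, *Cxcl12* peaks in capillary endothelial-like cells in all 3 panels, and *Ccl19* stands out in the *Csf2rb* stromal-like class at 6517 CPM in the wild-type panel.

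Both knockout libraries were compared with the same wild-type library. To compare libraries, the log2 ratio of CPM was taken in each class and the median over all genes tested in that class was taken off, so that a ratio of 1 means 2-fold above the typical gene. This median lay between 0.05 and 0.17 in the *Mgp*-KO and between 0.06 and 0.30 in the *Pd*-KO stromal classes. In *Mgp*-KO cells, 36 of 88 tested pairs of a gene and a stromal class lay past 2-fold, 23 higher (26.1%) and 13 lower (14.8%). Over all genes, 11.8% of the pairs were past 2-fold higher and 2.02% past 2-fold lower in this library. In *Pd*-KO cells, 54 of 87 tested pairs lay past 2-fold, of which 4 were higher (4.60%) and 50 lower (57.5%). Over all genes, 14.5% of the pairs were past 2-fold higher and 4.64% past 2-fold lower. The members' share of lower pairs in *Pd*-KO cells lay above that of all genes, and their share of higher pairs below it. Over the stroma as a whole, *Cxcl13* and *Il6* were past 2-fold higher and *Cxcl14* and *Ccl19* lower in *Mgp*-KO cells, where 15.4% of all genes were past 2-fold higher and 5.19% lower. In *Pd*-KO stroma *Cxcl1*, *Cxcl10*, *Ccl2*, *Ccl7*, *Cxcl14* and *Ccl19*, 6 of the 10 genes, were past 2-fold lower and none higher, where 17.5% of all genes were higher and 9.03% lower. Of these, *Cxcl14* lay just past the threshold at -1.01, and short of it at -0.82 without the median taken off.

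Ratios followed the genomic span of a gene (its length with introns), and 9 of the 10 genes lie in the shortest 25% of genes tested (up to 9.54 kb). Before the median was taken off, the median log2 ratio over the stroma was -0.28 in the shortest and 1.12 in the longest 25% of genes in *Pd*-KO cells, and -0.16 and 0.93 in *Mgp*-KO cells. Among the shortest 25%, 18.6% of genes were past 2-fold lower in *Pd*-KO and 9.50% in *Mgp*-KO stroma. For lower ratios the shares over all genes are thus a low mark for genes of this length. Past 2-fold higher were 3.64% of the shortest 25% in *Pd*-KO and 3.71% in *Mgp*-KO stroma. For higher ratios the shares over all genes are thus a high mark. With the median of the 200 genes of nearest span taken off instead, a choice made after seeing the data, 43 of 87 *Pd*-KO pairs were past 2-fold, 39 of them lower (all genes, 5.68% higher and 4.36% lower). These 43 were among the 54 found before, and the 11 lost were all 3 of *Ccl11*, 2 of *Ccl7* and 1 each of *Cxcl1*, *Cxcl10*, *Cxcl12*, *Cxcl14*, *Ccl2* and *Ccl19*. In *Mgp*-KO cells 40 pairs were then past 2-fold, 29 higher and 11 lower (all genes, 5.33% and 2.70%). Over the stroma the *Pd*-KO ratios became -2.39 for *Cxcl1*, -2.03 for *Cxcl10*, -2.12 for *Ccl2*, -1.59 for *Ccl7* and -3.72 for *Ccl19*, while *Cxcl14*, at -0.66, was no longer past 2-fold. Whether introns were counted in each library is not given in the sources used here, and the part of intron counting in these ratios was not tested.

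**Figure D2:**
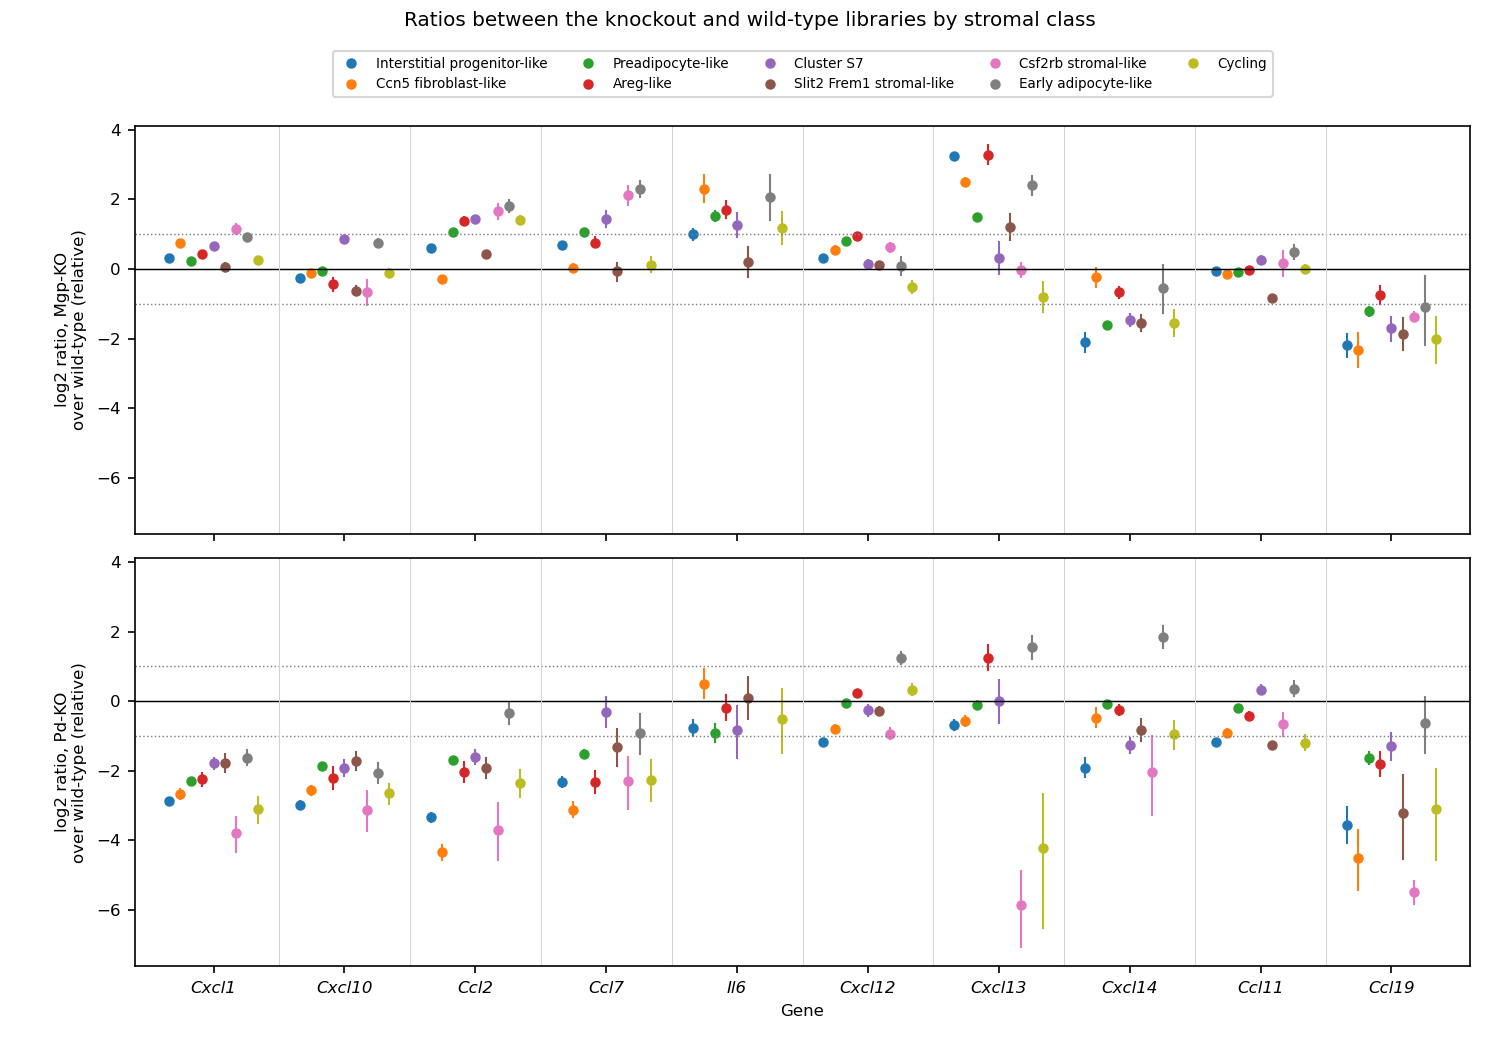
Log2 ratio of each knockout over the wild-type library (vertical axis, median of all genes taken off) for each gene (horizontal axis), with 1 point per stromal class and 95% counting intervals as bars. In the *Pd*-KO panel the points of *Cxcl1* and *Cxcl10* lie below -1 in all 9 classes, whereas in the *Mgp*-KO panel *Il6*, *Ccl2* and *Cxcl13* lie mostly above 0 and *Cxcl14* and *Ccl19* below it.

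*Cxcl1*, *Cxcl10*, *Ccl2*, *Ccl7* and *Il6* formed the inducible group. The 250 bases before the start of *Cxcl1*, *Cxcl10* and *Il6* are shown because these genes are textbook targets of NF-κB and 2 of them were lower in *Pd*-KO cells throughout the stroma; *Cxcl12*, a homeostatic chemokine, is shown for contrast. The sequences are from RefSeq (GRCm38.p6), which gave an entry for 7 of the 10 genes (not for *Ccl2*, *Ccl7* or *Ccl11*). Capitals mark matches to GGGNNNTTCC, a form of the κB site, or to its reverse complement GGAANNNCCC, a motif chosen after the sequences had been seen.
Cxcl1, chr5:90890995-90891244, plus strand: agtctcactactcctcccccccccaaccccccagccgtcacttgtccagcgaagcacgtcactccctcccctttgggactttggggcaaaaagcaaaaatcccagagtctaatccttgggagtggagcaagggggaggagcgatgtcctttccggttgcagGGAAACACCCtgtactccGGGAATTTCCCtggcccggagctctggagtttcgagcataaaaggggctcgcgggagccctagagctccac
Cxcl10, chr5:92348890-92349139, minus strand: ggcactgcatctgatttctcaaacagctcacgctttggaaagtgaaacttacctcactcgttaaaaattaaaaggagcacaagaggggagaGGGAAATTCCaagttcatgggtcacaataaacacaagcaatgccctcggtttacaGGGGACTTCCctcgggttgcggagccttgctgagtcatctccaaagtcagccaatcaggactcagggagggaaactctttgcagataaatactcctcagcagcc
Il6, chr5:30012864-30013113, plus strand: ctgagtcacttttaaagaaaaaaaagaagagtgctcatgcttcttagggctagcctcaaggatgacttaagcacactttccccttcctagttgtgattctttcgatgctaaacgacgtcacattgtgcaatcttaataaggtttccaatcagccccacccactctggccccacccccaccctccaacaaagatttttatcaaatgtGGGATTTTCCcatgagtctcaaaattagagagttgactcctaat
Cxcl12, chr6:117168285-117168534, plus strand: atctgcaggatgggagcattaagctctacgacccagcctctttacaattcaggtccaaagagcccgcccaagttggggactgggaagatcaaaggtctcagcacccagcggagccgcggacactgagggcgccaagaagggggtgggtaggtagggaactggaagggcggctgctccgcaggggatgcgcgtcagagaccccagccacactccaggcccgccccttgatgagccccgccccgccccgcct
*Cxcl1* held 3 matches on both strands, 2 of which overlap, *Cxcl10* held 2 and *Il6* held 1, starting 44 bases before the gene. The windows of *Cxcl12*, *Cxcl13*, *Cxcl14* and *Ccl19* held none of these letters. Of all 32851 promoters in the table, 1527 (4.65%) held a match in the same window.

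*Cxcl1* (ENSMUSG00000029380, chromosome 5, 90891241 to 90893115, plus strand, GRCm38), a neutrophil attractant, was one of the genes held by many stromal classes. In wild-type cells its level was 952 CPM (911 to 995) in *Csf2rb* stromal-like cells, 912 CPM (902 to 922) in preadipocyte-like cells and 852 CPM (829 to 874) in early adipocyte-like cells. The first 2 did not differ beyond their intervals, and all 3 lay above interstitial progenitor-like (297 CPM), Areg-like (233 CPM) and *Slit2 Frem1* stromal-like cells (130 CPM). Among the vessels, pericyte-like cells had 354 CPM and capillary endothelial-like cells 93.6 CPM, and the 25 high endothelial venule-like cells had 686 CPM. Preadipocyte-like cells gave 48.6% of all wild-type *Cxcl1* UMIs.

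Over the stroma as a whole, *Cxcl1* was at 513 CPM (509 to 517) in wild-type, 548 CPM (543 to 553) in *Mgp*-KO and 78.4 CPM (76.3 to 80.6) in *Pd*-KO cells. At this whole-stroma level the wild-type and *Mgp*-KO libraries lay close together and the *Pd*-KO library stood apart. Its log2 ratio was -2.89 (-2.93 to -2.85), against -0.05 (-0.07 to -0.03) for *Mgp*-KO. The *Mgp*-KO ratio was positive in every stromal class, from 0.05 (-0.05 to 0.16) in *Slit2 Frem1* stromal-like to 1.16 in *Csf2rb* stromal-like cells. Interstitial progenitor-like and *Ccn5* fibroblast-like cells, at 297 and 165 CPM in the wild-type library, were 19.3% and 4.43% of its cells. In the *Mgp*-KO library their shares were 32.4% and 13.9%. The *Pd*-KO ratio was past 2-fold lower in all 9 stromal classes, from -1.62 in early adipocyte-like to -3.80 in *Csf2rb* stromal-like cells. It was also past 2-fold lower in capillary (-2.96) and venous endothelial-like (-2.73), pericyte-like (-2.74) and smooth muscle-like cells (-1.05). Free RNA, read from barcodes of 10 to 100 UMIs, had 305 CPM (274 to 339) of *Cxcl1* in the wild-type library. It had 793 CPM (732 to 858) in the *Mgp*-KO and 125 CPM in the *Pd*-KO library. The whole *Mgp*-KO stroma (548 CPM) lay below *Mgp*-KO free RNA. Of its classes only preadipocyte-like (1196 CPM), early adipocyte-like (1664 CPM) and *Csf2rb* stromal-like cells (2212 CPM) lay above it. Wild-type interstitial progenitor-like (297 CPM), Areg-like (233 CPM), *Ccn5* fibroblast-like (165 CPM) and *Slit2 Frem1* stromal-like cells (130 CPM) lay below wild-type free RNA, the first within its interval. The part of free RNA in these ratios was not tested. In *Mgp*-KO cells only the *Csf2rb* stromal-like class was past 2-fold, at 1.16 (1.02 to 1.30), a class of 46 cells in that library. With each cell thinned to 2000 UMIs, 36.4%, 34.3% and 10.7% of stromal cells had a *Cxcl1* UMI (67.7%, 49.9% and 24.9% before thinning). In Schwann-like cells, where the gene is not known as a marker, the thinned shares were 13.4%, 16.9% and 1.23%. Median depths were 14154.5, 6459 and 8962 UMIs in the stroma and 5557, 3386 and 3639 UMIs in Schwann-like cells.

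*Cxcl10* (ENSMUSG00000034855, chromosome 5, 92346638 to 92348889, minus strand), an interferon-inducible attractant of CXCR3-positive T cells, was highest in early adipocyte-like cells, at 655 CPM (636 to 675) in the wild-type library. Preadipocyte-like and cycling cells followed, both at 503 CPM, and Areg-like cells were lowest in the stroma at 86.5 CPM. The level over the stroma was 323 CPM (320 to 326) in wild-type, 270 CPM (267 to 274) in *Mgp*-KO and 58.8 CPM (56.9 to 60.6) in *Pd*-KO cells. As for *Cxcl1*, the low library was *Pd*-KO, with a ratio of -2.64 (-2.69 to -2.59) and all 9 stromal classes past 2-fold lower, from -1.72 to -3.13. Free RNA of *Cxcl10* was at 302 CPM (271 to 335) in the wild-type, 364 CPM (323 to 409) in the *Mgp*-KO and 54.1 CPM in the *Pd*-KO library. The whole *Mgp*-KO stroma (270 CPM) lay below *Mgp*-KO free RNA, while cluster S7 (414 CPM) and early adipocyte-like cells (1150 CPM) lay above it. Wild-type cluster S7 (211 CPM), *Ccn5* fibroblast-like (208 CPM), interstitial progenitor-like (196 CPM), *Slit2 Frem1* stromal-like (122 CPM) and Areg-like cells lay below wild-type free RNA. The part of free RNA in these ratios was not tested. In pericyte-like cells *Cxcl10* was at 173 CPM in the wild-type and 8.97 CPM in the *Pd*-KO library (-4.40, -5.39 to -3.56). No stromal class was past 2-fold in *Mgp*-KO cells, in which cluster S7 (0.86) and early adipocyte-like cells (0.75) had the largest ratios. Of 10 interferon targets that reached 50 CPM, 3 were past 2-fold higher in *Pd*-KO stroma (*Ifit1* 1.16, *Stat2* 1.12 and *Oasl2* 1.05) and none lower, a share of 30.0% against the 17.5% of all genes. In *Mgp*-KO stroma none of the 10 was past 2-fold, and *Stat2* was the farthest at 0.85.

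*Ccl2* (ENSMUSG00000035385) and *Ccl7* (ENSMUSG00000035373) lie beside each other on the plus strand of chromosome 11, at 82035571 to 82037453 and 82045712 to 82047525, and encode monocyte attractants that act through CCR2. Both had their highest wild-type level in preadipocyte-like cells. *Ccl2* was at 384 CPM (377 to 390) there, at 354 CPM (329 to 381) in *Csf2rb* stromal-like cells and at 89.4 CPM in Areg-like cells. *Ccl7* was at 171 CPM (167 to 176), 164 CPM (147 to 182) and 84.5 CPM in the same classes. The vessel classes lay at 43.3 CPM or below for *Ccl2*, and from 4.15 to 16.0 CPM for *Ccl7*.

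*Ccl2* differed in both knockout libraries, in opposite directions. Over the stroma it was at 238 CPM (236 to 241) in wild-type, 415 CPM (410 to 419) in *Mgp*-KO and 43.9 CPM (42.3 to 45.5) in *Pd*-KO cells. The *Mgp*-KO ratio of 0.65 (0.63 to 0.68) over the whole stroma stayed under 2-fold, but 6 of 9 classes were past it, from preadipocyte-like (1.06) to early adipocyte-like cells (1.81). The 3 others were interstitial progenitor-like (0.60), *Slit2 Frem1* stromal-like (0.42) and *Ccn5* fibroblast-like cells (-0.30). With the classes weighted as in the wild-type stroma, the ratio over the stroma was 1.04. In *Pd*-KO cells the ratio over the stroma was -2.62 (-2.68 to -2.57), and 8 classes were past 2-fold lower, with *Ccn5* fibroblast-like cells lowest (198 against 11.1 CPM, -4.34). Early adipocyte-like cells, with 167 and 150 CPM, were the exception (-0.33, -0.66 to -0.02). By qPCR, the paper reported no difference in *Ccl2* (there *Mcp1*) between inguinal fat of *Pd*-KO mice and of floxed mice without Cre at the same age. That measure used adipose tissue rather than sorted cells, and other controls than the wild-type library.

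*Ccl7* was at 104 CPM (102 to 106), 180 CPM (177 to 183) and 27.4 CPM (26.2 to 28.7) over the stroma, in the same order of libraries. Its ranking among the libraries was that of *Ccl2*. In *Mgp*-KO cells 4 classes were past 2-fold higher: early adipocyte-like (2.30), *Csf2rb* stromal-like (2.13), cluster S7 (1.45) and preadipocyte-like cells (1.06). The *Pd*-KO ratios were past 2-fold lower in 7 classes, from -1.31 to -3.12, and cluster S7 (-0.30, -0.73 to 0.11) and early adipocyte-like cells (-0.91) were not. Free RNA of *Ccl2* and *Ccl7* was at 223 and 121 CPM in the wild-type, at 602 and 221 CPM in the *Mgp*-KO and at 44.6 and 25.1 CPM in the *Pd*-KO library. Several wild-type classes lay below wild-type free RNA, among them interstitial progenitor-like cells (171 CPM of *Ccl2* and 87.1 CPM of *Ccl7*). The whole *Mgp*-KO stroma (415 and 180 CPM) lay below *Mgp*-KO free RNA, as did Areg-like cells (260 and 160 CPM), while preadipocyte-like cells (894 and 399 CPM) lay above it. The part of free RNA in the ratios of both genes was not tested.

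*Il6* (ENSMUSG00000025746, chromosome 5, 30013114 to 30019981, plus strand), a cytokine that signals through gp130 and STAT3, was sparse, and even within the stroma. Its wild-type levels were 25.5 CPM (16.2 to 38.3) in pericyte-like, 22.8 CPM (14.3 to 34.5) in venous endothelial-like, 21.4 CPM (19.9 to 23.0) in preadipocyte-like and 21.1 CPM (18.5 to 24) in Areg-like cells. These 4 levels did not differ beyond their intervals. Luminal epithelial-like (2.38 CPM), Schwann-like (2.71 CPM) and arterial endothelial-like cells (1.34 CPM) were lowest. Free RNA, read from barcodes of 10 to 100 UMIs, had 19.1 CPM (12 to 29) in the wild-type, 48.1 CPM (34 to 66) in the *Mgp*-KO and 23.6 CPM (18.7 to 29.4) in the *Pd*-KO library. The stromal levels given next lay within these intervals in wild-type and *Mgp*-KO cells, and below the interval in *Pd*-KO cells.

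*Il6* was the only inducible gene that was not past 2-fold lower in *Pd*-KO stroma. Over the stroma it was at 16.1 CPM (15.4 to 16.8) in wild-type, 43.0 CPM (41.6 to 44.5) in *Mgp*-KO and 12.6 CPM (11.8 to 13.5) in *Pd*-KO cells. The *Mgp*-KO library stood above the others, with a ratio of 1.27 (1.19 to 1.35), and 6 classes were past 2-fold higher, from 1.19 in cycling to 2.31 in *Ccn5* fibroblast-like cells. Interstitial progenitor-like cells lay on the line, at 1.00 (0.83 to 1.16), and were counted below it. Among the vessel classes only smooth muscle-like cells could be given a *Mgp*-KO ratio, with 14.2 CPM in the wild-type and 107 CPM, from 44 UMIs, in the *Mgp*-KO library (2.84, 2.27 to 3.40). In *Pd*-KO cells none of the 7 stromal classes tested was past 2-fold, and the ratio over the stroma was -0.54 (-0.65 to -0.42). Over all vessels *Il6* was past 2-fold lower in the *Pd*-KO library (12.2 against 6.06 CPM, -1.25, -1.85 to -0.68), from 32 *Pd*-KO UMIs. No single vessel class had enough UMIs for a *Pd*-KO ratio. The *Mgp*-KO ratio was 1.45 in female and 1.5 in male stromal cells.

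Genes on the path of *Il6* were measured beside it. Of 9 genes of the IL6 family and its signaling that reached 50 CPM in a stromal class, 2 were past 2-fold higher in *Mgp*-KO stroma (22.2%, against 15.4% of all genes). These were *Stat3*, the transcription factor of the pathway (65.1 against 231 CPM, 1.68), and *Il6ra*, the receptor subunit that binds IL6 (19.1 against 44.5 CPM, 1.07), while *Osmr*, the oncostatin M receptor, was at 0.92. All 3 are long genes (49.1 to 61.4 kb), and with the median of genes of like span taken off they were at 1.36, 0.82 and 0.57. In *Pd*-KO stroma none was past 2-fold higher and *Socs3*, the feedback inhibitor of STAT3, was lower (241 against 65.0 CPM, -2.08). *Il6st*, which encodes gp130, was at 108, 128 and 162 CPM in the 3 libraries.

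NF-κB targets were counted beside the inducible genes. Of 16 NF-κB targets that reached 50 CPM, 7 were past 2-fold lower (43.8%, against 9.03% of all genes) and 1 higher in *Pd*-KO stroma, with a median ratio of -0.56 (0.00 over all genes). The farthest were *Ier3* (-2.59), *Icam1*, an adhesion molecule and one of the markers that named the preadipocyte-like class (-2.35), and *Nfkbia*, the inhibitor of NF-κB (-2.10). In *Mgp*-KO stroma 3 were past 2-fold higher (18.8%, near the 15.4% of all genes) and none lower, with a median of 0.34. They were *Nfkb1* (44.9 against 243 CPM, 2.29, and 1.55 against genes of its own span), *Birc3* (1.89) and *Nfkbiz* (1.00). The 5 inducible genes themselves had medians of 0.65 in *Mgp*-KO and -2.62 in *Pd*-KO stroma.

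Immediate early and heat shock genes, which enzymatic digestion of tissue is known to switch on, lay on the same side as the inducible chemokines in *Pd*-KO cells. Of 18 such genes (*Socs3* among them), 16 were past 2-fold lower in *Pd*-KO stroma (88.9%, against 9.03% of all genes) and none higher. Their median was -1.63, and they were led by *Hspa1a* (262 against 21 CPM, -3.82), *Hspa1b* (-3.51) and *Atf3* (-2.50). In *Mgp*-KO stroma 1 of the 18 was past 2-fold, *Hspa1b* (-1.73), a share of 5.56% lower against 5.19% of all genes, and the median was -0.05. Their summed level was 13065, 15501 and 5265 CPM in the stroma and 9918, 13549 and 4235 CPM in the vessels (wild-type first, then *Mgp*-KO and *Pd*-KO). The summed level of the 5 inducible genes was 1194, 1456 and 221 CPM in the stroma and 285, 321 and 82.8 CPM in the vessels. Both sums were thus lowest in the *Pd*-KO library in either compartment. The part of digestion in the low level of the inducible chemokines was not tested.

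**Figure D3:**
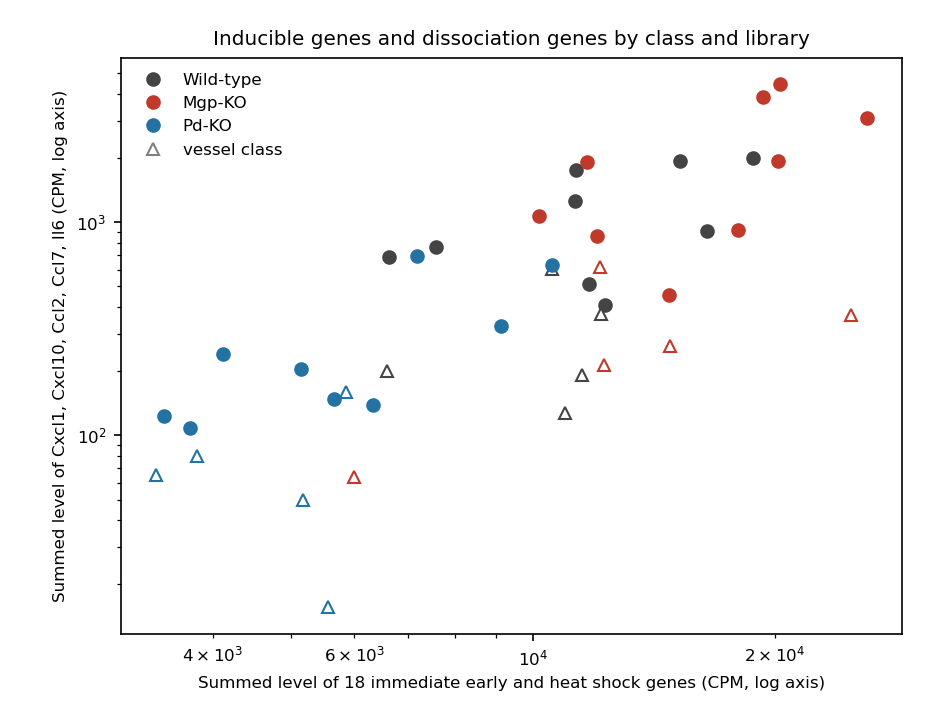
Summed level of *Cxcl1*, *Cxcl10*, *Ccl2*, *Ccl7* and *Il6* (vertical axis, CPM, log scale) against the summed level of 18 immediate early and heat shock genes (horizontal axis, CPM, log scale), with 1 point per class and library; circles are stromal classes and triangles vessel classes. The *Pd*-KO points lie low on both axes, as in preadipocyte-like cells with 633 CPM and 10587 CPM against 1992 CPM and 18776 CPM in wild-type.

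Among preadipocyte-like cells, the inducible genes were higher in cells rich in *Cxcl1*. The cells of each library were split into the 25% richest in *Cxcl1* per UMI and the rest, which gave 580 and 1740 wild-type cells with medians of 15224.5 and 14141.5 UMIs. *Ccl2* was at 602 CPM in the *Cxcl1*-rich group and 306 CPM in the other wild-type cells, at 1668 and 608 CPM in *Mgp*-KO and at 238 and 118 CPM in *Pd*-KO cells. The *Cxcl1*-rich group held 41.0%, 50.4% and 40.4% of the *Ccl2* UMIs of the class in these libraries. *Ccl7* was at 270 and 137 CPM in wild-type cells, and *Il6* at 38.0 and 15.5 CPM. *Cxcl10* was likewise higher in the *Cxcl1*-rich group of all 3 libraries, at 780 against 405, 957 against 386 and 289 against 130 CPM. The same split was made in interstitial progenitor-like, Areg-like and smooth muscle-like cells, which gave 12 pairs of a class and a library in all. In all 3 of these classes in *Pd*-KO, and in *Mgp*-KO smooth muscle-like cells, the other cells had 0 CPM of *Cxcl1*. There the split followed whether a *Cxcl1* UMI was detected, which depends on depth (medians of 9593 and 8167 UMIs in *Pd*-KO interstitial progenitor-like cells). *Cxcl10*, *Il6* and *Nfkbia* were higher in the *Cxcl1*-rich group in 12 of 12, and so was *Fos*, by 1.12 to 2.26 times. *Ccl2* and *Ccl7* were higher in 11, the exception being *Pd*-KO smooth muscle-like cells (21.2 against 39.5 CPM and 4.24 against 5.64 CPM). Among the genes outside the inducible group, *Ccl11* was also higher in 12 of 12, by 1.14 to 17.6 times. *Ccl19* was higher in 8, *Cxcl13* in 7, and *Cxcl14* and *Cxcl12* in 4 each, so the split did not set the inducible genes apart from all others. *Cxcl12* was lower in the *Cxcl1*-rich preadipocyte-like cells (192 against 277 CPM in wild-type) and higher in the *Cxcl1*-rich interstitial progenitor-like cells (203 against 123 CPM in wild-type).

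The homeostatic group differed by gene and class. *Cxcl12* (ENSMUSG00000061353, chromosome 6, 117168535 to 117181367, plus strand), which retains CXCR4-positive cells in tissue, was the vascular member. In the wild-type library it was at 3710 CPM (3641 to 3780) in capillary endothelial-like, 1543 CPM (1490 to 1598) in *Csf2rb* stromal-like, 1491 CPM (1405 to 1581) in arterial endothelial-like and 763 CPM (746 to 779) in Areg-like cells. The *Csf2rb* and arterial levels did not differ beyond their intervals. Pericyte-like cells had 379 CPM, preadipocyte-like cells 255 CPM and interstitial progenitor-like cells 144 CPM, and lymphatic endothelial-like cells had 19.5 CPM (9.75 to 34.9).

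The capillary level of *Cxcl12* was 3710 CPM in wild-type, 5064 CPM (4877 to 5256) in *Mgp*-KO and 3967 CPM (3884 to 4052) in *Pd*-KO cells, and neither ratio was past 2-fold (0.38 and -0.05). Arterial endothelial-like cells had 1491, 1953 and 3019 CPM, with a *Pd*-KO ratio of 1.05 (0.93 to 1.17). Over all vessels the levels were 1151, 2174 and 1977 CPM. Smooth muscle-like cells, at 145 CPM in the wild-type library, made up 782 of 1698 wild-type but 123 of 417 *Mgp*-KO vessel cells.

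In the stroma *Cxcl12* was at 280 CPM (277 to 283), 369 CPM (365 to 374) and 207 CPM (204 to 211). In *Mgp*-KO cells no class was past 2-fold, and Areg-like cells came closest, with 763 against 1638 CPM (0.94, 0.90 to 0.99). Of the *Pd*-KO classes, interstitial progenitor-like cells were lower (144 against 73.3 CPM, -1.16, or -0.97 without the median taken off) and early adipocyte-like cells higher (214 against 568 CPM, 1.24), while preadipocyte-like cells, with 255 and 303 CPM, lay at -0.05. Free RNA of *Cxcl12* was at 168, 362 and 241 CPM in the 3 libraries. Interstitial progenitor-like cells lay below it in each, with 199 CPM in the *Mgp*-KO library, whereas Areg-like cells lay above it. The part of free RNA in the *Cxcl12* ratios was not tested. *Ackr3*, the scavenging receptor of CXCL12, was past 2-fold higher in the stroma of both knockout libraries (146, 374 and 411 CPM, with ratios of 1.21 and 1.31). *Cxcr4*, its signaling receptor, was near 0 in the stroma, at 0.8, 0.126 and 0.166 CPM.

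*Cxcl14* (ENSMUSG00000021508, chromosome 13, 56288643 to 56296551, minus strand), a chemokine of epithelia and fibroblasts, was highest in the 42 wild-type myoepithelial-like cells, at 1375 CPM (1283 to 1473). Within the stroma it was at 204 CPM (199 to 208) in preadipocyte-like cells, 172 CPM (165 to 180) in cluster S7 and 134 CPM (127 to 141) in Areg-like cells, and at 18.5 CPM in interstitial progenitor-like cells. These 3 classes led the stromal level of *Cxcl14*, while early adipocyte-like cells had 46.3 CPM. Over the stroma it was at 109 CPM (107 to 111) in wild-type, 33.3 CPM (32.1 to 34.6) in *Mgp*-KO and 61.6 CPM (59.8 to 63.6) in *Pd*-KO cells.

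*Cxcl14* was lower in both knockout libraries over the stroma, by ratios of -1.86 (-1.92 to -1.80) and -1.01 (-1.06 to -0.96), but the classes differed. In *Mgp*-KO cells 5 of 8 classes were past 2-fold lower, among them preadipocyte-like cells (74.3 CPM, -1.61). Areg-like cells were not (93.5 CPM, -0.67). No ratio was given for *Csf2rb* stromal-like cells, which had 133 UMIs in the wild-type and 0 in the *Mgp*-KO library. In *Pd*-KO preadipocyte-like cells the level was 235 CPM (226 to 245), close to the wild-type level (-0.09), and Areg-like cells had 133 CPM (-0.26). With the classes weighted as in the wild-type stroma, the ratios were -1.43 for *Mgp*-KO and -0.31 for *Pd*-KO, a smaller *Pd*-KO difference than with the classes as they were. Preadipocyte-like cells were 22.1%, 18.7% and 14.2% of the cells in these libraries, wild-type first, and interstitial progenitor-like cells 19.3%, 32.4% and 33.6%. In interstitial progenitor-like cells the levels were 4.76 CPM in *Mgp*-KO (127 UMIs) and 5.61 CPM in *Pd*-KO cells (145 UMIs), with ratios of -2.11 and -1.91. These 2 ratios turned to 0.27 and 0.63 when cells were clustered without integration of the libraries. Free RNA of *Cxcl14* was at 41.8, 40.5 and 47.0 CPM in the 3 libraries, above the interstitial progenitor-like level of each. The whole *Mgp*-KO stroma (33.3 CPM) also lay below it, within its interval (27.7 to 57.2). The part of free RNA in the *Cxcl14* ratios was not tested.

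*Ccl11* (ENSMUSG00000020676, chromosome 11, 82057823 to 82062955, plus strand), the eosinophil attractant eotaxin, was the most even chemokine of the stroma. Wild-type levels ran from 162 CPM (153 to 171) in *Ccn5* fibroblast-like to 605 CPM (589 to 621) in *Slit2 Frem1* stromal-like cells, with 445 CPM (438 to 452) in preadipocyte-like cells. The vessel classes lay at 63.2 CPM or below. Over the stroma *Ccl11* was at 329 CPM (326 to 332), 303 CPM (299 to 306) and 198 CPM (195 to 202) in the 3 libraries, *Pd*-KO being the lowest. No class was past 2-fold in *Mgp*-KO cells (-0.82 to 0.49). In *Pd*-KO cells 3 classes were past 2-fold lower, *Slit2 Frem1* stromal-like (-1.27), cycling (-1.19) and interstitial progenitor-like cells (-1.17), whereas preadipocyte-like cells, with 476 CPM, were not (-0.20). Without the median taken off, cycling cells were at -0.94 and interstitial progenitor-like cells at -0.97, short of 2-fold. Free RNA of *Ccl11* was at 222 CPM (195 to 251), 334 CPM (295 to 377) and 124 CPM (113 to 137) in the 3 libraries. Wild-type *Ccn5* fibroblast-like cells and cluster S7 (172 CPM) lay below it. Interstitial progenitor-like cells lay within its interval in the wild-type (232 CPM) and *Pd*-KO libraries (118 CPM). The part of free RNA in the *Ccl11* ratios was not tested.

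*Ccl19* (ENSMUSG00000071005, chromosome 4, 42754525 to 42756577, minus strand) encodes a ligand of CCR7 that draws T cells and dendritic cells to lymphoid tissue. In the wild-type library it belonged mainly to 1 class. The 176 *Csf2rb* stromal-like cells there had 6517 CPM (6408 to 6628) and gave 71.0% of all *Ccl19* UMIs. Pericyte-like cells were next at 152 CPM (128 to 180), but 1 of the 131 cells held 80 of the 137 UMIs and without it the level was 64.6 CPM (49.0 to 83.7). Preadipocyte-like cells were at 66.5 CPM (63.8 to 69.3), and interstitial progenitor-like cells had 13.9 CPM, a range of 438-fold within the stroma. Capillary endothelial-like cells had 16.8 CPM (12.5 to 22.2) and free RNA 47.0 CPM (35.3 to 61.3), so the lowest levels in cells lay below that of free RNA. After thinning to 2000 UMIs, 72.0% of the *Csf2rb* stromal-like cells had a *Ccl19* UMI (81.2% before), against 3.85% of Schwann-like cells (6.88% before), with median depths of 9660 and 5557 UMIs.

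The *Csf2rb* stromal-like class carried markers of lymph node stroma. All 7 of these markers were detected in the wild-type class, with a summed level of 9241 CPM, most of it *Ccl21a* (8933 CPM), the other CCR7 ligand, and with *Il7* at 68.3 CPM, *Bst1* at 144 CPM and *Cr2* at 12 CPM. The sum was 3294 CPM in *Mgp*-KO cells, with 1 marker at 0, and 1152 CPM in *Pd*-KO cells, with 2 at 0. Leukocyte markers summed to 66.4, 35.5 and 22.5 CPM in the class, with 2, 6 and 7 of 8 at 0. The inguinal fat pad holds a lymph node, and its part in this class was not tested.

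In *Csf2rb* stromal-like cells *Ccl19* was at 6517 CPM in the wild-type, 2616 CPM (2409 to 2835) in the *Mgp*-KO and 151 CPM (119 to 190) in the *Pd*-KO library, where the class held 176, 46 and 53 cells. Both knockout libraries were lower, with ratios of -1.37 (-1.49 to -1.25) and -5.49 (-5.84 to -5.17). In preadipocyte-like cells it was at 66.5, 32.0 and 26.6 CPM (-1.21 and -1.63), and 8 of 9 stromal classes in *Mgp*-KO and 8 of 9 in *Pd*-KO cells were past 2-fold lower. The exceptions were Areg-like cells in *Mgp*-KO (-0.74) and early adipocyte-like cells in *Pd*-KO (-0.63). Free RNA of *Ccl19* was lower as well, at 47.0, 13.9 and 3.59 CPM, and the wild-type levels of interstitial progenitor-like (13.9 CPM), *Ccn5* fibroblast-like (16.2 CPM), *Slit2 Frem1* stromal-like (17.7 CPM), early adipocyte-like (34.2 CPM) and cycling cells (39.6 CPM) lay below that of wild-type free RNA. The part of free RNA in these ratios was not tested.

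Over the stroma *Ccl19* was at 156 CPM (153 to 158), 19.9 CPM (19.0 to 20.9) and 8.81 CPM (8.11 to 9.55), with ratios of -3.11 and -4.33. Without the *Csf2rb* stromal-like class the ratios were -1.86 and -2.59. That class gave 36.6% of the *Mgp*-KO and 12.3% of the *Pd*-KO *Ccl19* UMIs, and preadipocyte-like cells gave 32.1% and 48.3%. *Ccl21a* had ratios of -4.47 and -4.62 over the stroma. Pericyte-like cells had 152 CPM of *Ccl19* in the wild-type and 7.40 CPM, from 2 UMIs, in the *Mgp*-KO library (-4.38, -7.44 to -2.50). Without the 1 wild-type cell that held 80 UMIs, too few UMIs were left for a ratio.

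*Cxcl13* (ENSMUSG00000023078, chromosome 5, 95956951 to 95961068, plus strand), the CXCR5 ligand that draws B cells to follicles, was also highest in *Csf2rb* stromal-like cells, at 909 CPM (869 to 951) in the wild-type library. Preadipocyte-like cells had 78.8 CPM (75.9 to 81.8), *Ccn5* fibroblast-like cells 70.4 CPM (64.7 to 76.5), interstitial progenitor-like cells 35.6 CPM (33.4 to 37.9) and Areg-like cells 11.6 CPM (9.64 to 13.8). The vessel classes had at most 14.7 CPM. Over the stroma *Cxcl13* was at 60.5 CPM (59.1 to 61.9) in wild-type, 271 CPM (268 to 275) in *Mgp*-KO and 42.9 CPM (41.4 to 44.5) in *Pd*-KO cells.

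The *Mgp*-KO library stood above the others for *Cxcl13*, with a ratio of 2.02 (1.98 to 2.06), but not in the class that led in wild-type cells. *Csf2rb* stromal-like cells had 909 and 927 CPM (-0.03, -0.24 to 0.18). Interstitial progenitor-like cells had 35.6 and 373 CPM (3.24, 3.15 to 3.34), Areg-like cells 11.6 and 127 CPM (3.29, 3.01 to 3.58) and *Ccn5* fibroblast-like cells 70.4 and 443 CPM (2.50, 2.38 to 2.63). In all, 6 of 9 classes were past 2-fold higher and none past 2-fold lower. The origin of the UMIs differed accordingly, as 45.0% of the *Mgp*-KO *Cxcl13* UMIs came from interstitial progenitor-like cells and 0.944% from *Csf2rb* stromal-like cells, against 11.9% and 23.6% in wild-type cells. *Cxcl13* was concentrated in few cells: the 1% of stromal cells with most of it held 43.5% of its wild-type and 28.3% of its *Mgp*-KO stromal UMIs. The thinned share of stromal cells with a UMI was 6.44% in wild-type and 15.6% in *Mgp*-KO cells (21.1% and 23.0% before thinning), against 3% and 4.73% of Schwann-like cells (6.88% and 10.0% before). Free RNA of *Cxcl13* was at 33.1 CPM in the wild-type and 161 CPM (134 to 191) in the *Mgp*-KO library. Of the *Mgp*-KO classes past 2-fold higher, Areg-like (127 CPM) and *Slit2 Frem1* stromal-like cells (22.7 CPM) lay below *Mgp*-KO free RNA and the others above it. The part of free RNA in the *Cxcl13* ratios was not tested.

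The higher level of *Cxcl13* in *Mgp*-KO cells was larger in female cells. Wild-type female and male stromal cells had 53.0 CPM (50.8 to 55.3) and 55.2 CPM (53.1 to 57.4), whereas *Mgp*-KO female and male cells had 329 CPM (324 to 334) and 100 CPM (95.4 to 106). Both wild-type levels lay below the 60.5 CPM of all wild-type stromal cells, so cells called neither female nor male are left out of this comparison. The ratio was 2.48 (2.42 to 2.55) in female and 0.80 (0.71 to 0.89) in male cells. In interstitial progenitor-like cells the female levels were 42.0 and 518 CPM and the male levels 34.5 and 68.8 CPM. In *Pd*-KO stroma female cells had 34.8 CPM and male cells 47.1 CPM. Each sex was pooled over mice, so a difference between single mice cannot be told apart from a difference between sexes. No other gene had ratios in *Mgp*-KO stroma that differed between sexes by as much; the next were *Cxcl14* (-2.16 in female and -1.48 in male cells) and *Cxcl1* (-0.18 and 0.38).

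In *Pd*-KO cells *Cxcl13* was at 16.3 CPM (7.05 to 32.2) in the *Csf2rb* stromal-like class, from 8 UMIs, against 909 CPM in wild-type (-5.86, -7.08 to -4.88). The other classes were divided, with Areg-like (1.25) and early adipocyte-like cells (1.55) past 2-fold higher, cycling cells (2.74 CPM from 3 UMIs, -4.23) past 2-fold lower, and preadipocyte-like (-0.12) and interstitial progenitor-like cells (-0.69) within 2-fold. Leukocyte markers summed to 6.16 CPM in the wild-type and 53.8 CPM in the *Pd*-KO cycling cells, and their part in that ratio was not tested. When cells were clustered without integration of the libraries, the ratio in cycling cells was 0.25. Without the *Csf2rb* stromal-like class the ratio over the stroma was -0.26, against -0.68 with it. *Pd*-KO Areg-like cells, at 32.6 CPM, lay below the 61.3 CPM of *Pd*-KO free RNA, and the part of free RNA in their ratio was not tested.

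**Figure D4:**
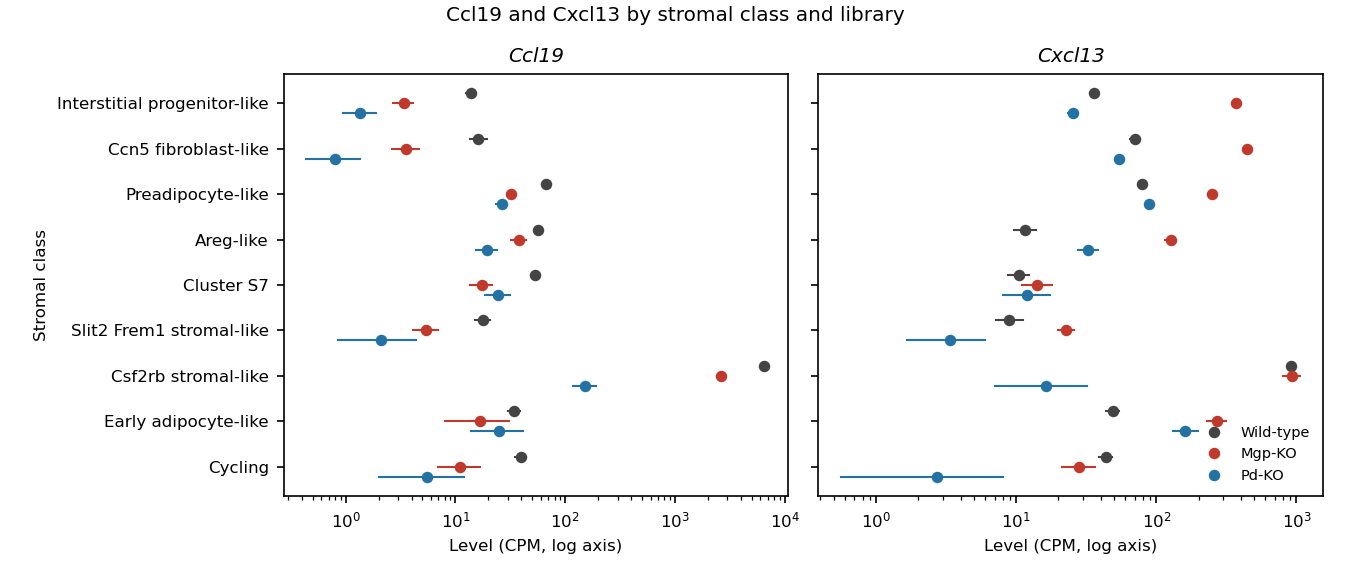
Levels of *Ccl19* and *Cxcl13* (horizontal axes, CPM, log scale) in the 9 stromal classes of the 3 libraries, with 95% Poisson intervals as bars. *Ccl19* lies at 6517, 2616 and 151 CPM in *Csf2rb* stromal-like cells, and *Cxcl13* in *Mgp*-KO cells lies above wild-type in interstitial progenitor-like, *Ccn5* fibroblast-like and Areg-like cells.

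In the vessels, pairs of a gene and a class with at least 30 cells in both libraries gave 14 tests in *Mgp*-KO and 17 in *Pd*-KO cells. Pairs without a knockout UMI were given no ratio. Among them were *Ccl19* in *Mgp*-KO smooth muscle-like cells (133 wild-type against 0 UMIs) and in *Pd*-KO pericyte-like cells (137 against 0). Of these 137 UMIs, 1 wild-type cell held 80. In *Mgp*-KO vessels 1 was past 2-fold higher (*Il6* in smooth muscle-like cells) and 3 lower, *Cxcl1* (-1.84) and *Cxcl10* (-1.96) in capillary endothelial-like and *Ccl19* in pericyte-like cells. Over all genes, 4.47% of the vessel pairs were past 2-fold higher and 4.13% lower. In *Pd*-KO vessels 1 was past 2-fold higher (*Cxcl12* in arterial endothelial-like cells) and 8 lower, of which *Cxcl1* accounted for 4, *Cxcl10* for 3 and *Ccl19* for 1. Over all genes, 10.8% were past 2-fold higher and 3.40% lower. *Cxcl10* in smooth muscle-like cells was the exception among these pairs (0.43). The *Ccl19* pair, in smooth muscle-like cells, came from 133 wild-type and 3 *Pd*-KO UMIs, and 1 wild-type cell held 40 of the 133. *Mgp* was itself past 2-fold lower in *Pd*-KO capillary (-3.68), arterial (-4.62) and venous endothelial-like (-2.49) and smooth muscle-like cells (-2.46), but not in pericyte-like cells (-0.55). Free RNA of *Cxcl1* and *Cxcl10* was also lowest in the *Pd*-KO library, at 305, 793 and 125 CPM of *Cxcl1* and 302, 364 and 54.1 CPM of *Cxcl10*. The wild-type capillary levels of 93.6 and 74.7 CPM lay below wild-type free RNA. The part of free RNA in the vessel ratios was not tested. High endothelial venule-like cells numbered 25, 3 and 6 and were not compared.

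Other chemokine ligands were few. Of 28 listed ones, 6 reached 50 CPM in a stromal class. In *Pd*-KO stroma 4 of the 6 were past 2-fold lower (66.7%, against 9.03% of all genes) and none higher (17.5% of all genes). These included *Cxcl2*, a neutrophil attractant related to *Cxcl1* (36.9 against 0.662 CPM, -5.98), *Ccl21a* (175 against 8.10 CPM, -4.62) and *Ccl12*, a relative of *Ccl2* (9.44 against 0.557 CPM, -4.27). In *Mgp*-KO stroma *Ccl21a* alone was past 2-fold lower (-4.47) and none was higher, where 5.19% of all genes were lower and 15.4% higher. The receptors of these chemokines are mostly found on leukocytes, which had been depleted, and 2 of 20 listed receptors reached 50 CPM in a stromal class, *Ackr3* and *Ackr1*.

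As a description, the 3 genes most like each member were taken by Pearson correlation of log2(CPM + 1) over 46 points, each a class with at least 50 cells in 1 library, among 11322 genes. The points share 3 libraries, so a likeness can follow the library as well as the class. *Cxcl1* was most like *Ccl2* (0.85), the heat shock gene *Dnajb1* (0.85) and *Egr1* (0.83), *Ccl2* was most like *Ccl7* (0.89), and *Ccl7* was most like *Ptx3* (0.89). *Cxcl10* was most like *Hspa5* (0.85), *Il6* was most like *Gem* (0.77), and *Cxcl13* was most like the complement gene *C4b* (0.80). *Ccl11* followed the general stromal genes *Gsn* (0.94), *Ctsk* (0.93) and *Twist2* (0.92). *Cxcl12* was most like *Nrp1* (0.86), *Cxcl14* was most like *Fbln7* (0.70), and *Ccl19* was most like *Ccl21a* (0.78). *Cxcl12* had correlations of -0.17 to 0.17 with the other 9 genes.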

How the data were processed

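The files deposited hold unfiltered UMI counts, not normalized, from 10x Genomics 3′ v3 libraries aligned with Cell Ranger, 6.1.1 in the methods and the submitters' processing notes and 4 or 7.1.0 in the file headers; the build is mm10 in the methods and GRCm39 in those notes. How introns were counted is not given in the sources used here. Cells were taken at 2000 UMIs and 10% mitochondrial UMIs; doublets were removed in an alternative only (7.05% to 10.1% called). Counts per 10000 were log-transformed, and 2000 variable genes without any chemokine, *Il6*, *Mgp* or sex-linked genes gave 30 principal components, Harmony integration (theta 2) and Leiden clusters (resolution 0.5, leidenalg 0.10.2, Python 3.11.15); stroma and vessels were clustered again. Clusters were named by marker lists. UMIs were summed per class and library and given as CPM with exact Poisson intervals; shares have exact binomial intervals and ratios exact conditional binomial intervals. Ratios needed 100 UMIs in a class over both libraries and 30 cells in each. No ratio was given where a library had no UMI of the gene in the class. Free RNA was read from barcodes of 10 to 100 UMIs. Coordinates are those of GENCODE M21 (GRCm38); 99.8% of the gene identifiers matched. The steps were tested on simulated counts. The symbols and lists were chosen with earlier results of these data known. All 10 genes are named in the text, and from each list the 3 genes with the largest ratios. Alternatives changed the UMI minimum, scaling, weighting of cells, integration, resolution, sex, free RNA, doublets and cells with *Ptprc*.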

Additional observations from a re-analysis of the deposited data

Results flagged for a closer look

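In *Pd*-KO cells 3 genes had stromal classes past 2-fold in opposite directions, which is why they are listed here; with 1 library per genotype the differences between classes were not tested. *Cxcl12* had a log2 ratio of 1.24 (1.06 to 1.41) in early adipocyte-like and -1.16 (-1.24 to -1.08) in interstitial progenitor-like cells, the latter -0.97 without the median taken off. *Cxcl13* was at 1.25 (0.89 to 1.61) in Areg-like and 1.55 (1.21 to 1.88) in early adipocyte-like cells, and at -5.86 (-7.08 to -4.88) in *Csf2rb* stromal-like and -4.23 (-6.52 to -2.67) in cycling cells, the last from 3 *Pd*-KO UMIs. The *Pd*-KO Areg-like level of *Cxcl13* lay below that of *Pd*-KO free RNA. So did the *Pd*-KO interstitial progenitor-like levels of *Cxcl12* and *Cxcl14*. *Cxcl14* was at 1.86 (1.54 to 2.17) in early adipocyte-like cells, and at -1.91 (-2.19 to -1.64) in interstitial progenitor-like cells, -1.27 (-1.49 to -1.06) in cluster S7 and -2.03 (-3.28 to -1.01) in *Csf2rb* stromal-like cells. Without integration of the libraries, *Cxcl13* in cycling cells and *Cxcl14* in interstitial progenitor-like cells turned to 0.25 and 0.63. The early adipocyte-like class is on the higher side for all 3 genes and held 217 wild-type and 45 *Pd*-KO cells, and the *Csf2rb* stromal-like class held 176 and 53.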

How the results depend on the processing

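The count of gene and class pairs past 2-fold was 36 in *Mgp*-KO and 54 in *Pd*-KO cells. Without integration of the libraries the *Pd*-KO count was 29 of 57 pairs that could be compared, since several classes then lacked cells. In male cells alone the counts were 18 of 59 and 30 of 51, with fewer cells in each class. Under every other setting they ran from 25 to 40 and from 38 to 59, and lower pairs made up most of the *Pd*-KO pairs under all settings. The genes with their highest wild-type level in the stroma numbered 7 to 9. With the median of the 200 genes of nearest genomic span taken off instead, a setting added after seeing the data, the counts were 40 and 43. Without integration 4 ratios changed sign, *Cxcl14* in interstitial progenitor-like cells (0.27 for *Mgp*-KO and 0.63 for *Pd*-KO), *Il6* in cluster S7 (-0.16, *Mgp*-KO) and *Cxcl13* in cycling cells (0.25, *Pd*-KO); the cause was not tested. At a minimum of 500 UMIs, *Ccn5* fibroblast-like and cycling clusters were not found and gave no value. No paired analysis was possible because each genotype had 1 library and no result came from a test. Depth limits the comparison most for *Il6*, with 886 UMIs in *Pd*-KO cells, and for *Ccl19*, with 601.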
